A study of Mus musculus and Sus scrofa with 12 samples.

Results

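Tbx2 and Tbx3 are paralogous genes for T-box transcription factors. Both were described here from the called peaks of 3 histone modifications in the embryonic forelimbs of mouse and pig. They were chosen by name, with the width of the H3K4me3 domain over them and the H3K27ac and H3K4me1 beside it known from these data. They are 2 of the 21774 mouse and 2 of the 20609 pig protein-coding genes in the RefSeq annotations used. For each gene all peaks at its transcription start sites (TSSs), inside it and within 300 kb of either end were taken from the 6 deposited peak lists. Positions and widths of those peaks are therefore given as descriptions, without a test.

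T-box factors bind DNA through the conserved T-box domain, and Tbx2 and Tbx3 act mainly as repressors of transcription. In the limb bud both are known from the anterior and posterior margins, where they take part in hedgehog and BMP signalling and in the patterning of digits. Loss of TBX3 function in humans causes ulnar-mammary syndrome, which affects the posterior side of the arm and hand. Each of them neighbours a gene of another T-box pair: Tbx2 lies beside Tbx4, the hindlimb selector, and Tbx3 beside Tbx5, the forelimb selector. H3K4me3, trimethylation of lysine 4 of histone H3, is a modification of promoters. H3K27ac, acetylation of lysine 27, lies at active promoters and enhancers, and H3K4me1 lies at enhancers and beside promoters.

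The samples were wild-type mouse forelimbs at E11.5 and wild-type pig forelimbs at D23, with 12 samples in 6 groups of 2, each group being a species and a modification. The forelimbs came from littermates, and a call in bulk tissue does not say in which cells, or in what share of them, a modification was present. ChIPmentation, chromatin immunoprecipitation in which a transposase adds the sequencing adapters on the antibody beads, was the assay. Each list is a consensus over the samples of its group that holds positions only, so no replicate spread, peak height or depth could be given. A gene counted as marked where a peak overlapped the 1 kb on either side of an annotated TSS by at least 1 bp. All 8 forelimb mesenchyme markers, Tbx5, Prrx1, Hand2, Hoxd13, Hoxa13, Shox2, Lhx9 and Msx1, were marked by H3K4me3 and by H3K27ac in mouse, and 7 of 8 by each in pig, where Prrx1 had neither. The nearest pig H3K4me3 and H3K27ac peaks were 1.08 and 1.17 kb from the Prrx1 start site, just outside the window. The 3 hindlimb selectors Tbx4, Pitx1 and Isl1 were marked by H3K4me3, and by no H3K27ac, in mouse and in pig. H3K27ac marked 1 of 4 ectoderm markers in each species (Sp8, and not Fgf8, Wnt7a or Krt5). In mouse it also marked 1 of 2 blood markers (Klf1, not Gata1) and 1 of 2 muscle precursor markers (Myf5, not Pax3), and in pig none of these 4. It marked 0 of 2 endothelial and 0 of 2 neuronal markers in both species. H3K4me3 was called at markers of the other cell types too, in mouse at 4 of 4 ectoderm markers. In mouse it was also called at 2 of 2 each for blood, endothelium, muscle precursors and neurons. In pig H3K4me3 marked 3 of 4 ectoderm, 0 of 2 blood and 1 of 2 endothelial markers. There it also marked 2 of 2 muscle precursor and 1 of 2 neuronal markers. Over all coding genes H3K27ac marked 41.6% in mouse and 46.7% in pig, and H3K4me3 65.0% in each.

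The genes lie on mouse chromosome 11 (Tbx2, GRCm38, 85832615 to 85841948, plus strand) and chromosome 5 (Tbx3, 119670534 to 119684724, plus strand). In pig they lie on chromosome 12 (TBX2, Sscrofa11.1, 36878662 to 36887513, minus strand) and chromosome 14 (TBX3, 37582704 to 37596767, plus strand). RefSeq gives a single start site for Tbx2 and for TBX2, 3 for Tbx3 (the later ones 328 and 699 bp into the gene) and 2 for TBX3 (the later one 118 bp into it). In the pig TBX2 model the start codon lies only 22 bp from the 5′ end, against 492 bp in mouse Tbx2, so distances from the start site of TBX2 are less certain. The 250 bases before the 5′ end are shown for the genes with a longer leader, because the modifications differ over them. Capitals mark CG dinucleotides.
Tbx2, mouse, chr11:85832365-85832614, plus strand: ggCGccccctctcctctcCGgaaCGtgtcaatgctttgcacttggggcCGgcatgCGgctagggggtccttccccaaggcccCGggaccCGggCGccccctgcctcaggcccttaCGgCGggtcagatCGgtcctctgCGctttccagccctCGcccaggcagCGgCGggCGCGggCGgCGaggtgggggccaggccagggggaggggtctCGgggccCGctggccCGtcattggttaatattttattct
Tbx3, mouse, chr5:119670284-119670533, plus strand: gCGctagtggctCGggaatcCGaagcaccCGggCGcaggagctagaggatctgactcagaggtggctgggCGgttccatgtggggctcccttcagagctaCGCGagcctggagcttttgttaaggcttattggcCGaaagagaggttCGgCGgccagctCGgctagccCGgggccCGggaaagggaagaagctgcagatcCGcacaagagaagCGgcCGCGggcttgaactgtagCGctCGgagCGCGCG
TBX3, pig, chr14:37582454-37582703, plus strand: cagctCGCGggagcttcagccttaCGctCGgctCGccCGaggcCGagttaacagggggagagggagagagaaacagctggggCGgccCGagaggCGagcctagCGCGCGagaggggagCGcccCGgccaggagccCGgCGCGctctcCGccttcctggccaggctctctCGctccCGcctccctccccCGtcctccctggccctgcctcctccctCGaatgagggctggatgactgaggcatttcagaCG
The mouse Tbx2 sequence, which overlaps another annotated gene, 2610027K06Rik, lay wholly inside an H3K4me3 peak and outside H3K27ac and H3K4me1. The mouse Tbx3 sequence, which lies within the non-coding gene Tbx3os1, was in a peak of none of the 3 lists. The pig TBX3 sequence lay wholly inside both H3K4me3 and H3K27ac. They held 22, 23 and 24 CG dinucleotides, against medians of 7 over mouse and 11 over pig promoters, and 13.7%, 12.3% and 20.8% of the promoters of their species held at least as many. The same stretch of pig TBX2, wholly inside H3K4me3, held 41, a number that 3.06% of pig promoters reached. The T-box core motif GGTGTGA was not found on either strand in any of these 4 stretches. It occurred in 3.24% of 21774 mouse and 2.49% of 20602 pig stretches of that length.

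Among elements away from promoters, a pair of regions is shown for each gene, because the matching mouse and pig sequences carried the same modification. They were chosen after the values were seen. Capitals mark bases identical between the species in the alignment, and the strands are those of the alignment.
Tbx2 H3K27ac, mouse, chr11:85926749-85927048, minus strand: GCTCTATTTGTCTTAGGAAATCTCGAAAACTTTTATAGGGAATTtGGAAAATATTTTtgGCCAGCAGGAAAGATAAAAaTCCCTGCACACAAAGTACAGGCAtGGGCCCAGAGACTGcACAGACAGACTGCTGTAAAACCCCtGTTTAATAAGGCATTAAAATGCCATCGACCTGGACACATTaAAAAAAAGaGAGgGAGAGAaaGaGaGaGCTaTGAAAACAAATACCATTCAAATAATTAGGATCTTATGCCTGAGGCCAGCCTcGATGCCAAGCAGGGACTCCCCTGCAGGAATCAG
TBX2 H3K27ac, pig, chr12:36789516-36789814, plus strand: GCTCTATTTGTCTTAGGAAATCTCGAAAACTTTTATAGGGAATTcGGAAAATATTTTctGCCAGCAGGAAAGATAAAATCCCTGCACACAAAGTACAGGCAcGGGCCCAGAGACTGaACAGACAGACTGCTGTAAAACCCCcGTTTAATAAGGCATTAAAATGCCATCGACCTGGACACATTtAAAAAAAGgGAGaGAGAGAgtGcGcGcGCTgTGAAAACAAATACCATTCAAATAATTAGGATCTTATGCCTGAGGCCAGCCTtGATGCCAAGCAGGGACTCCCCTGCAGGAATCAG
Tbx3 H3K4me3, mouse, chr5:119748899-119749196, plus strand: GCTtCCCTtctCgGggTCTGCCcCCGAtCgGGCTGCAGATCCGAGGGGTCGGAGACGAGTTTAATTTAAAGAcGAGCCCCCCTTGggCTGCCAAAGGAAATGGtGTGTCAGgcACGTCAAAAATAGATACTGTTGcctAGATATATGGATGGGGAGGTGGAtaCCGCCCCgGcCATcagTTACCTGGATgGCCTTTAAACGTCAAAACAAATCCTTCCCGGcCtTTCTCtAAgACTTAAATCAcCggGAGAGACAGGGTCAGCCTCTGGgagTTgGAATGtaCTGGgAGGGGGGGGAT
TBX3 H3K4me3, pig, chr14:37681794-37682091, plus strand: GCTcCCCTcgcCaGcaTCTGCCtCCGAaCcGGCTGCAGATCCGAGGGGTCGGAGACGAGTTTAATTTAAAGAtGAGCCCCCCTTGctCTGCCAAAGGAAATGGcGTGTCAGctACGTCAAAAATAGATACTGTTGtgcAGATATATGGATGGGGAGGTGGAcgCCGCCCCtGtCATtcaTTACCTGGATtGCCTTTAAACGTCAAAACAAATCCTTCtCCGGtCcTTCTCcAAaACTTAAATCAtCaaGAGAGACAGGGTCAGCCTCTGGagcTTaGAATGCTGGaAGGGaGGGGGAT
The first pair lies past Tbx4, 94.1 kb from the 5′ end of Tbx2 in mouse and 97.7 kb from that of TBX2 in pig, in intergenic sequence. It is a stretch of a 636-column match with 84.0% identity, and 283 of the 300 columns shown (94.3%) are identical. The mouse region carried all 3 modifications and the pig region H3K27ac and H3K4me1. The second pair lies between Tbx3 and Tbx5, 78.4 kb from the 5′ end of Tbx3 in mouse and 99.1 kb from that of TBX3 in pig, also in intergenic sequence. It is a stretch of a 519-column match with 80.9% identity, and 257 of the 300 columns shown (85.7%) are identical. In the stretch shown H3K4me3 alone was called in both species.

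At the start sites, Tbx2 carried H3K4me3 without H3K27ac or H3K4me1 in both species, and Tbx3 carried all 3. H3K4me3 marked 65.0% of coding genes in mouse and 65.0% in pig. H3K27ac marked 41.6% and 46.7%, and H3K4me1 54.7% and 61.3%. At mouse Tbx2 the nearest H3K27ac began 1369 bp and the nearest H3K4me1 1452 bp into the gene. At pig TBX2 these distances were 2788 bp and 1797 bp. The calls at mouse Tbx3 rested on its later start sites: H3K4me3 began 1073 bp and H3K27ac 1326 bp from the 5′ end, which are 374 and 627 bp from the nearest start site. H3K4me1 at Tbx3 ended 614 bp before the 5′ end. With the 5′ end as the only start site, H3K4me1 was the single call at mouse Tbx3, whereas pig TBX3 kept all 3. With a window of 2.5 kb, mouse Tbx2 had all 3 modifications, and pig TBX2 had H3K4me3 and H3K4me1.

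The H3K4me3 peak at mouse Tbx2 was 10912 bp wide, which ranked 1 of the 14158 mouse genes with H3K4me3 at a start site and was 3.12 times their median of 3502 bp. It ran from 1947 bp before the 5′ end to 8964 bp after it and covered 96.0% of the gene. It also touched an exon of the neighbouring gene 2610027K06Rik, which is named here after its values were seen. In pig the widest H3K4me3 peak at the TBX2 start was 2564 bp, which ranked 2320 of 13395 (1.34 times the median of 1913 bp). The pig gene was however covered by a row of H3K4me3 peaks separated by short gaps. They ran from 2.22 to 0.565 kb before the 5′ end (1652 bp), from 0.273 kb before it to 2.29 kb after it, from 2.79 to 3.22 kb (428 bp) and from 3.63 to 5.84 kb (2213 bp), and a further one lay past the gene at 9.05 to 9.74 kb. When peaks less than 1 kb apart were joined in every gene, 4 of these pieces formed a domain of 8058 bp, which ranked 1 of 13395 in pig, and the mouse Tbx2 domain ranked 2 of 14158. The rank of pig TBX2 therefore depended on whether neighbouring calls were counted as 1 domain. The first of the 4 pieces lies inside another annotated gene, LOC110256170, whose start site is 0.291 kb upstream of that of TBX2 and 0.274 kb from this piece.

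At Tbx3 the widest H3K4me3 peak at a start site was 4733 bp in mouse, 1.35 times the median, and 6.10% of genes with H3K4me3 had one at least as wide. At pig TBX3 it was 3882 bp, 2.03 times the median, and 0.888% of genes had one at least as wide. The pig peak spanned the 5′ end, from 934 bp before it to 2947 bp after it. The mouse peak lay inside the gene, from 1073 to 5805 bp. Joining peaks left both widths as they were and placed them at 909 of 14158 and 245 of 13395. Mouse H3K4me3 peaks were wider in general, with a median over the whole list of 3308 bp against 1679 bp in pig, so widths were ranked within a species only.

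**Figure D1:**
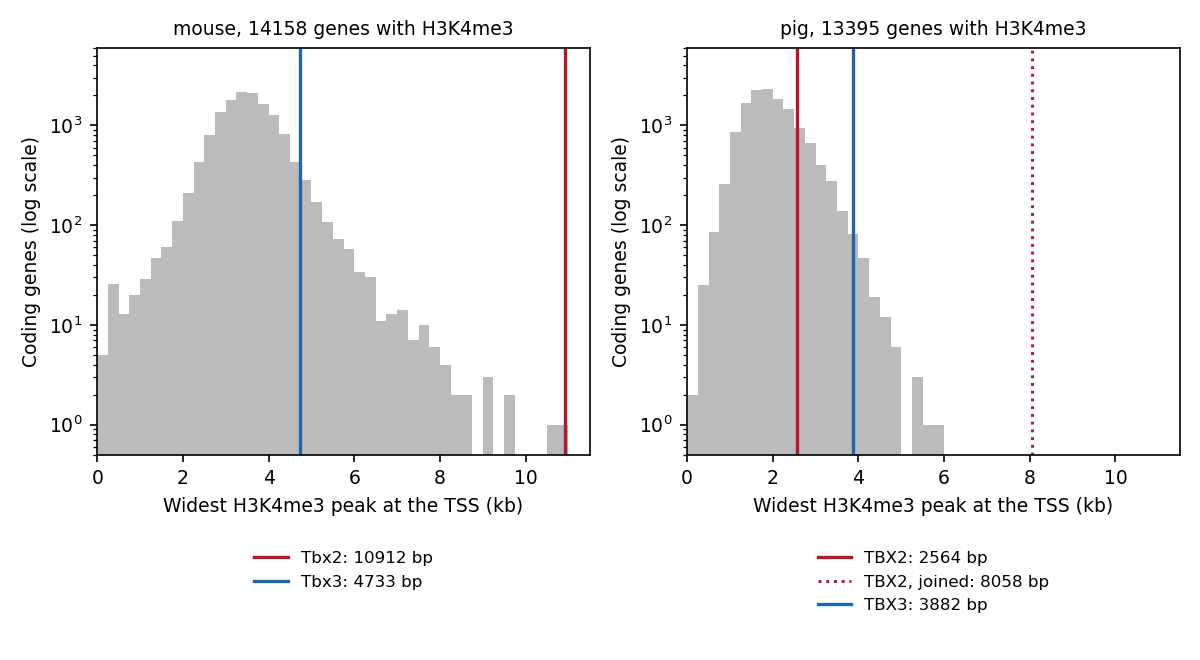
Histograms of the widest H3K4me3 peak at a TSS (kb, x axis) over coding genes with H3K4me3 (number on a log y axis), for mouse (left) and pig (right). Solid lines mark Tbx2/TBX2 (red) and Tbx3/TBX3 (blue), and the dotted line marks TBX2 after peaks under 1 kb apart at that gene were joined. Mouse Tbx2 lies at the right end at 10912 bp, while pig TBX2 moves from 2564 to 8058 bp on joining.

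H3K27ac and H3K4me1 lay inside the wide mouse Tbx2 domain more than beside it. A single H3K27ac peak of 7590 bp, from 1.37 to 8.96 kb, and a single H3K4me1 peak of 7465 bp covered 69.6% and 68.4% of the H3K4me3 peak, against medians of 59.4% and 48.9% over mouse genes. In the 5 kb upstream of the H3K4me3 peak neither modification was called, and the mouse medians there were also 0 bp for both. The nearest upstream H3K4me1 peak ended 14.6 kb before the 5′ end. In the 5 kb downstream there were 532 bp of H3K4me1 and no H3K27ac (medians 770 and 0 bp). Flanks without H3K27ac were thus usual among mouse genes with H3K4me3. Of the 14158 mouse genes with H3K4me3, 56 (0.396%) likewise had H3K27ac inside their widest H3K4me3 peak and not within 1 kb of a start site, and in 20 (0.141%) it filled at least 50% of that peak.

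Pig TBX2 had little H3K27ac. A single peak of 428 bp at 2.79 to 3.21 kb was the only one in the gene, it lay over the 428 bp piece of H3K4me3, and the widest H3K4me3 peak held none (pig median 74.3%). H3K27ac covered 4.84% of the pig gene, a share that 22.2% of pig genes reached, against 81.3% of the mouse gene, which 1.74% of mouse genes reached. Over the joined pig domain H3K27ac covered 5.31% and H3K4me1 50.2%. H3K4me1 in contrast lay broadly around pig TBX2. One peak of 6949 bp ended 3.27 kb before the 5′ end, another of 5085 bp ran from 1.80 to 6.88 kb, and together they gave 2004 bp in the upstream and 4591 bp in the downstream 5 kb of the H3K4me3 peak (medians 712 and 1990 bp). H3K4me1 covered 68.0% of pig TBX2 and 80.0% of mouse Tbx2. For H3K4me3 and H3K27ac, species, stage and read length at sequencing (100 bp cropped to 50 bp in mouse, 50 bp in pig) changed together and cannot be told apart. For H3K4me1, species and stage likewise changed together and cannot be told apart.

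**Figure D2:**
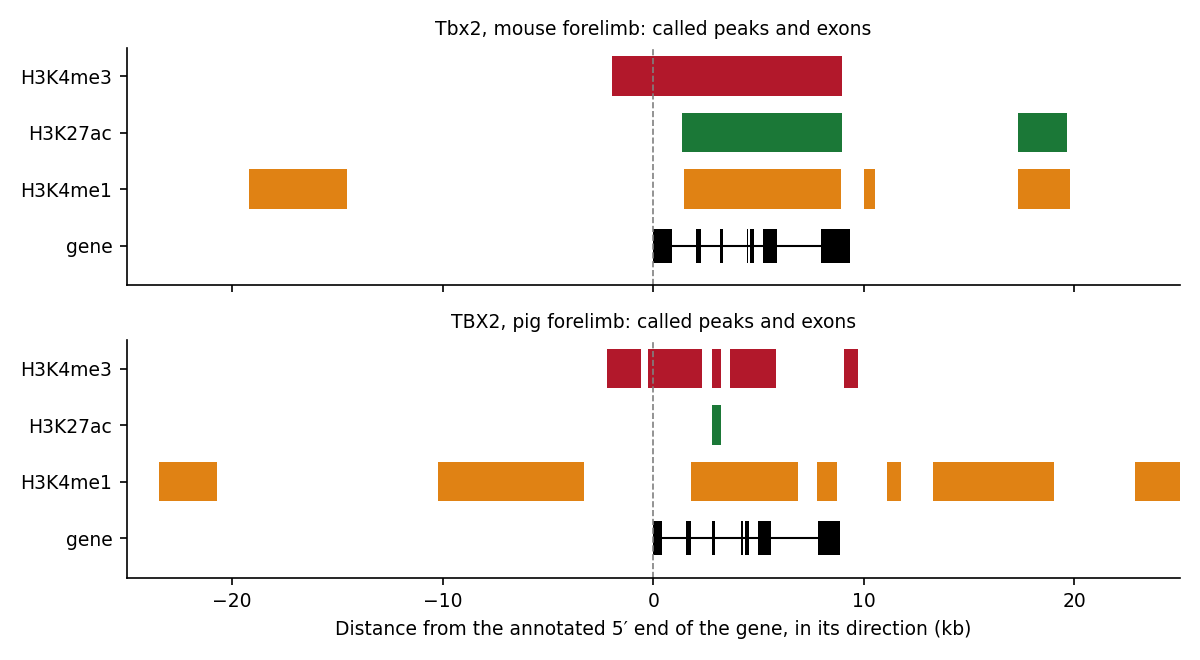
Called peaks of the 3 modifications (coloured bars) and exons (black) within 25 kb of the 5′ end of Tbx2 in mouse (top) and TBX2 in pig (bottom), with the distance from the 5′ end in the direction of the gene on the x axis (kb). In mouse a single H3K4me3 bar spans the gene and H3K27ac fills the gene from 1.37 kb, whereas in pig H3K4me3 is in 5 pieces and H3K27ac is a 428 bp call.

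Tbx3 carried H3K27ac in its 5′ part and over its last exons in each species. In mouse an H3K27ac peak of 3909 bp lay at 1.33 to 5.23 kb and covered 82.6% of the H3K4me3 peak (mouse median 59.4%). It began past the exon at the 5′ end, which ends 523 bp into the gene. Its start lay inside the exon at 699 to 1870 bp, which begins at the last annotated start site. A second H3K27ac peak of 4685 bp lay at 8.93 to 13.6 kb, over the last exons, together with an H3K4me3 peak of 4072 bp at 9.60 to 13.7 kb. In pig, H3K27ac at the start was in 2 pieces, one of 941 bp ending 31 bp past the 5′ end and one of 1399 bp at 0.876 to 2.27 kb, and covered 60.3% of the H3K4me3 peak (pig median 74.3%). The 3′ part of pig TBX3 held 2 further H3K4me3 peaks, of 1723 bp at 9.64 kb and of 798 bp over the last exon, each overlapped by H3K27ac, and smaller H3K27ac calls lay at 4.61 and 7.86 kb. H3K27ac covered 60.6% of the mouse and 35.6% of the pig gene, shares that 2.90% and 2.77% of coding genes reached. The 3′ H3K4me3 peaks of mouse and pig matched in sequence with 81.2% identity over a stretch that holds an exon.

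H3K4me1 flanked Tbx3 on the upstream side in both species. The mouse peak of 2983 bp ran from 3.60 to 0.614 kb before the 5′ end and the pig peak of 3641 bp from 4.05 to 0.408 kb before it. The 5 kb upstream of the H3K4me3 peak held 2983 bp in mouse and 3432 bp in pig, where the medians over genes were 0 and 712 bp. In pig a small part of this came from a further H3K4me1 peak, at 8.36 to 5.62 kb before the 5′ end. Downstream the values were 279 bp in mouse and 2760 bp in pig (medians 770 and 1990 bp). The mouse H3K4me3 peak itself was covered by H3K4me1 over 84.4% of its length and the pig peak over 13.6% (medians 48.9% and 33.1%). Upstream H3K4me3 was also present at 9.73 to 6.76 kb before the mouse gene, without other modifications, and at 8.51 kb before the pig gene, with H3K27ac and H3K4me1. The mouse peak at this place had a sequence match in pig 9.72 kb before TBX3, which was in no pig peak.

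**Figure D3:**
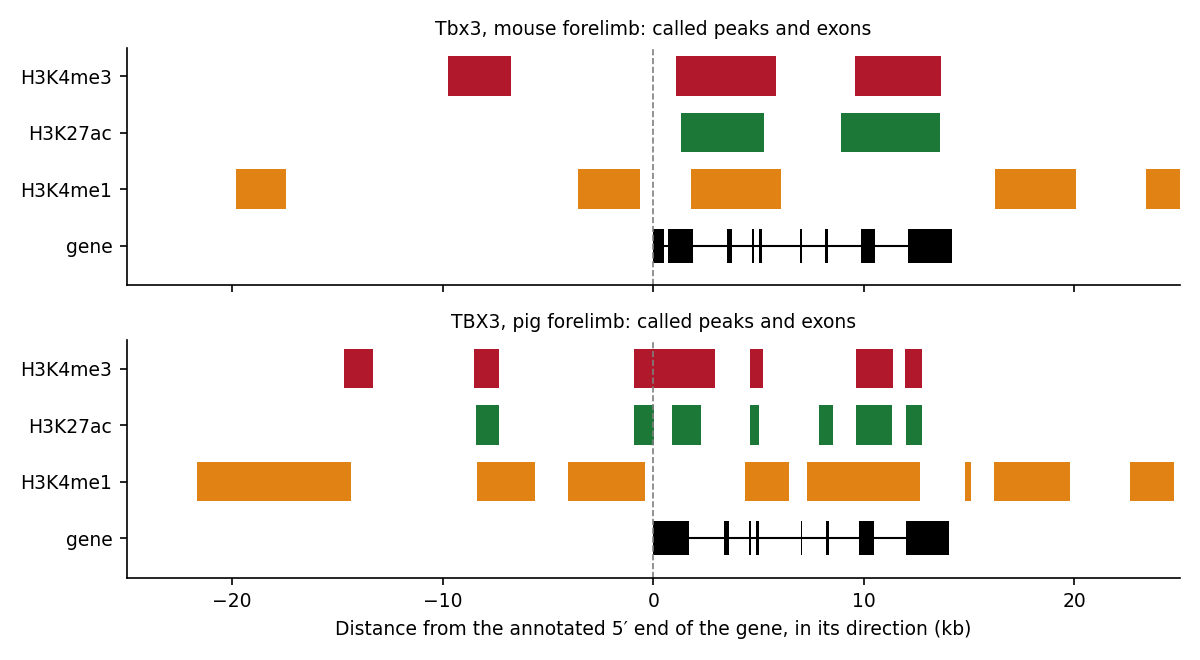
Called peaks of the 3 modifications (coloured bars) and exons (black) within 25 kb of the 5′ end of Tbx3 in mouse (top) and TBX3 in pig (bottom), with the distance from the 5′ end in the direction of the gene on the x axis (kb). H3K4me3 and H3K27ac lie at the 5′ part of the gene and over the last exons in both species, and the mouse calls at the start begin 1073 and 1326 bp into the gene.

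Within 300 kb, mouse Tbx2 had 8 H3K4me3, 6 H3K27ac and 38 H3K4me1 peaks, against medians of 8, 8 and 24 over mouse coding genes. Mouse Tbx3 had 10, 12 and 53. Its 53 H3K4me1 peaks covered 196 kb, and 1.09% of genes had as many peaks and 0.565% as much length covered. Pig TBX2 had 8, 12 and 52 peaks and TBX3 had 19, 25 and 61, against pig medians of 8, 10 and 34. The 25 H3K27ac peaks around TBX3 were a number that 3.28% of pig genes reached. They covered 29.4 kb, whereas the 12 around mouse Tbx3 covered 43.6 kb, since the pig peaks were narrower (median 1176 against 4136 bp). The pig window also holds TBX5, which was the nearest coding gene by start site for the H3K27ac peaks from 149 kb downstream onward. Most H3K4me1 peaks lay without the other modifications: 30 of 38 and 44 of 53 in mouse, and 41 of 52 and 42 of 61 in pig. The share over all H3K4me1 peaks was not computed, so this is not a trait of these loci. The H3K4me1 lists were by far the longest, with 69962 peaks in mouse and 103373 in pig. H3K4me3 and H3K27ac had 18353 and 20875 peaks in mouse, and 18713 and 27566 in pig. The farthest H3K27ac peaks inside the window lay 208, 295, 233 and 299 kb from the genes (Tbx2, Tbx3, TBX2, TBX3), and the nearest ones beyond it at 359, 356, 380 and 300 kb.

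In mouse most H3K27ac peaks lay downstream of the genes. Upstream of mouse Tbx2 there were 0 H3K27ac peaks within 300 kb and downstream 5, and at mouse Tbx3 there were 1 and 9. The 9 downstream of Tbx3 all had Tbx5 or Rbm19 as the nearest coding start site. Of the 5 downstream of Tbx2, that at 17.3 kb was nearest to Tbx2 and the rest to Tbx4 or Brip1. In pig the sides were closer, with 5 upstream and 6 downstream of TBX2 and 8 and 11 at TBX3. The 5 upstream of pig TBX2 all lay in BCAS3, the long gene on that side, which is named here after its values were seen. In mouse the body of Bcas3 held 3 H3K4me3 and 19 H3K4me1 peaks of the window and no H3K27ac. Of those 3, the H3K4me3 peaks at 192 and 97.4 kb before Tbx2 lay at no annotated start site and overlapped no other modification. Both matched pig sequence, and the matched pig positions were not in an H3K4me3 peak.

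**Figure D4:**
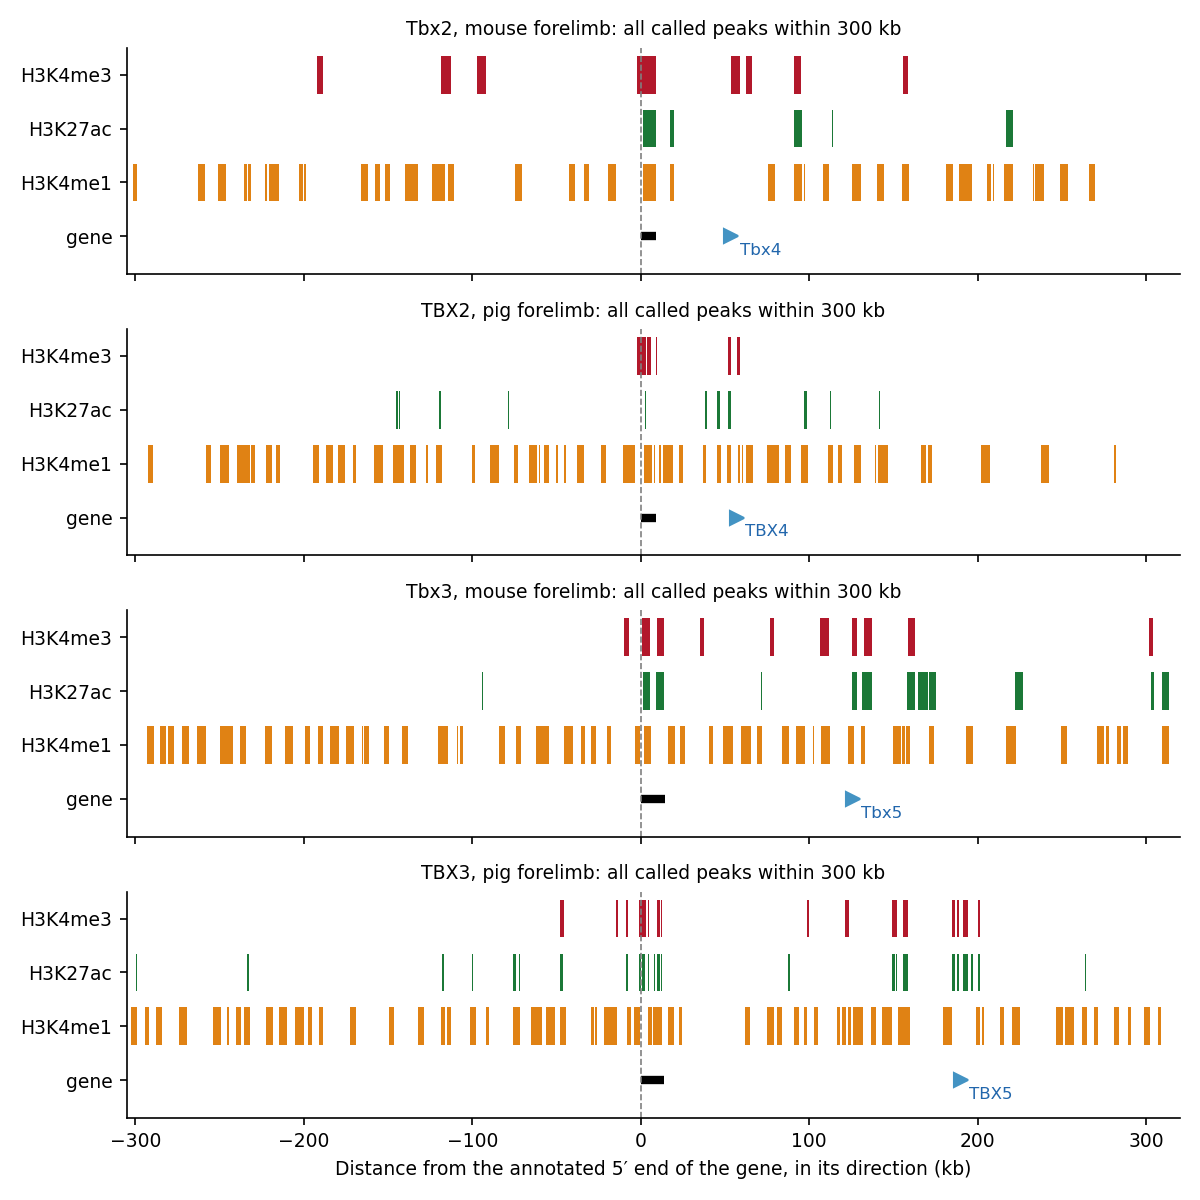
All called peaks within 300 kb of Tbx2 and Tbx3 in mouse and pig (4 panels, coloured bars per modification), with the distance from the 5′ end in the direction of the gene on the x axis (kb), the gene as a black bar and the 5′ end of Tbx4 or Tbx5 as a blue arrowhead. No H3K27ac bar lies upstream of mouse Tbx2, and H3K27ac around pig TBX3 is made of many narrow bars.

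Distal H3K27ac peaks were those outside the 1 kb around every annotated start site and outside H3K4me3 peaks. There were 4 at mouse Tbx2, 5 at mouse Tbx3, 10 at pig TBX2 and 10 at pig TBX3, with a median of 3 in either species. At least as many were found at 38.5% and 26.6% of mouse coding genes, and at 12.2% of pig ones for each. Of the peaks at the 4 genes, in the same order, 3, 4, 9 and 8 overlapped H3K4me1. At mouse Tbx2 the nearest was a peak of 2346 bp at 17.3 kb, between Tbx2 and Tbx4, and it was the only one whose nearest coding start site was that of Tbx2. At mouse Tbx3 a peak of 839 bp, 94.2 kb upstream, was the only one nearest to Tbx3. At pig TBX3 7 of the 10 were nearest to TBX3, of which 6 lay upstream, from 300 to 71.7 kb before the 5′ end, and 1 in the gene. At pig TBX2 none was nearest to TBX2, whose start site has that of LOC110256170 beside it. When overlap with H3K4me3 was allowed, pig TBX3 had 19 such peaks.

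H3K4me3 was also called away from start sites. Between Tbx3 and Tbx5 the mouse lists held H3K4me3 at 35.4, 77.0 and 106 kb, the last 5170 bp wide and wider than the peak at the Tbx3 start. In the 112 kb from the 3′ end of Tbx3 to Tbx5, H3K4me3 covered 9.10%, H3K27ac 1.28% and H3K4me1 37.9%. In the 175 kb of the pig interval the shares were 6.75%, 4.82% and 32.9%. The intervals do not hold the same sequence, so these shares are not like for like. Pig H3K27ac peaks at 149, 156 and 185 kb lie inside the pig interval. Their mouse matches lie at the start of or inside Tbx5, at 126, 132 and 159 kb. Between Tbx2 and Tbx4 the shares were 0.543%, 5.28% and 6.80% of 44.4 kb in mouse, and 5.78%, 9.50% and 31.8% of 48.3 kb in pig. The pig interval beside TBX2 also holds the start of LOC106505461, 53.4 kb from that of TBX2 and marked by H3K4me3 and H3K27ac, and that of C12H17orf82.

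The sequence of each peak was searched for in the orthologous locus of the other species, a property not used in choosing the genes. Of the distal mouse H3K27ac peaks, 1 of 4 at Tbx2 and 2 of 5 at Tbx3 had a match in the pig locus. None of these 3 best-scoring matches lay in pig H3K27ac, and 1 at each gene lay in pig H3K4me1. With any match of a peak counted, 1 of the Tbx3 peaks matched pig H3K27ac. Pig H3K27ac covered 1.43% and 3.36% of the loci searched, and pig H3K4me1 20% and 33.5%. Of the distal mouse H3K4me1 peaks, 26 of 31 at Tbx2 and 36 of 43 at Tbx3 had a match, and 18 and 27 of these matches lay in pig H3K4me1. In the other direction 6 of 10 distal pig H3K27ac peaks at TBX2 and 9 of 10 at TBX3 had a match in mouse, of which 1 at each gene lay in mouse H3K27ac and 4 at each gene in mouse H3K4me1. Mouse H3K27ac covered 2.68% and 5.42% of those loci and mouse H3K4me1 17.9% and 25.7%. The match at TBX2 is the first printed pair, and that at TBX3 lies in an intron of TBX5. With a looser E value of 1e-5, 4 of the 5 distal mouse H3K27ac peaks at Tbx3 matched and 3 of the matches lay in a pig peak.

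Peaks overlapping H3K4me3 were then included. Over all H3K27ac peaks outside start-site windows at pig TBX3, 16 of 19 had a match in mouse and 8 of the matches lay in mouse H3K27ac. These 8 lay inside mouse Tbx3, at 5.00, 9.83 and 12.1 kb, or at the start of or inside mouse Tbx5. The latter were at 126, 132, 159, 169 and 173 kb, so the 8 were not intergenic in mouse. For TBX2 7 of 11 had a match and 2 of those lay in mouse H3K27ac. In the same set of H3K4me3 peaks, 12 of 14 at pig TBX3 had a match and 7 of the matches lay in mouse H3K4me3, among them those at 9.64 kb and just beyond it over the last exons and that at 98.7 kb printed above. Mouse H3K4me3 covered 4.20% of that locus. The matches of the pig H3K4me3 peaks at 149, 156 and 186 kb lay at the start of or inside mouse Tbx5. In the other direction, 4 of 7 mouse H3K27ac peaks at Tbx3 had a match and 1 of the matches lay in pig H3K27ac, and 5 of 6 mouse H3K4me3 peaks had a match, of which 2 lay in pig H3K4me3. At mouse Tbx2 the counts were 3 of 6 with 1 in pig H3K27ac, and 4 of 4 with 0 in pig H3K4me3.

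Of the 17 T-box family genes, 12 in mouse and 11 in pig carried H3K4me3 at a start site, 6 and 5 carried H3K27ac, and 9 and 10 carried H3K4me1. Over all coding genes the shares were 65.0% and 65.0% for H3K4me3, 41.6% and 46.7% for H3K27ac, and 54.7% and 61.3% for H3K4me1. H3K27ac was called in both species at Tbx3, Tbx5, Tbx15, Tbx18 and Mga, and in mouse also at Tbx19. Tbx2 shared its lack of H3K27ac at the start site in both species with Tbx4 and with Tbx21, T and Eomes, all with H3K4me3. The nearest H3K27ac peak was 1.37 kb away at mouse Tbx2 against 26.7 kb at Tbx4, 32.4 kb at Tbx21, 14.8 kb at T and 25.6 kb at Eomes. In pig this distance was 2.79 kb at TBX2, 3.53 kb at TBX4, 40.9 kb at TBX21, 86.1 kb at the T ortholog and 172 kb at EOMES. The peak nearest to TBX4 lies at the start site of another coding gene, LOC106505461. The widest H3K4me3 peak at a mouse start site was 6528 bp at Tbx1, 5369 bp at Tbx4, 5184 bp at Tbx15 and 3952 bp at Tbx5, all below the 10912 bp of Tbx2. In pig TBX15 had the widest single peak of the family, with 5742 bp, below the 8058 bp of the TBX2 domain after joining.

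**Figure D5:**
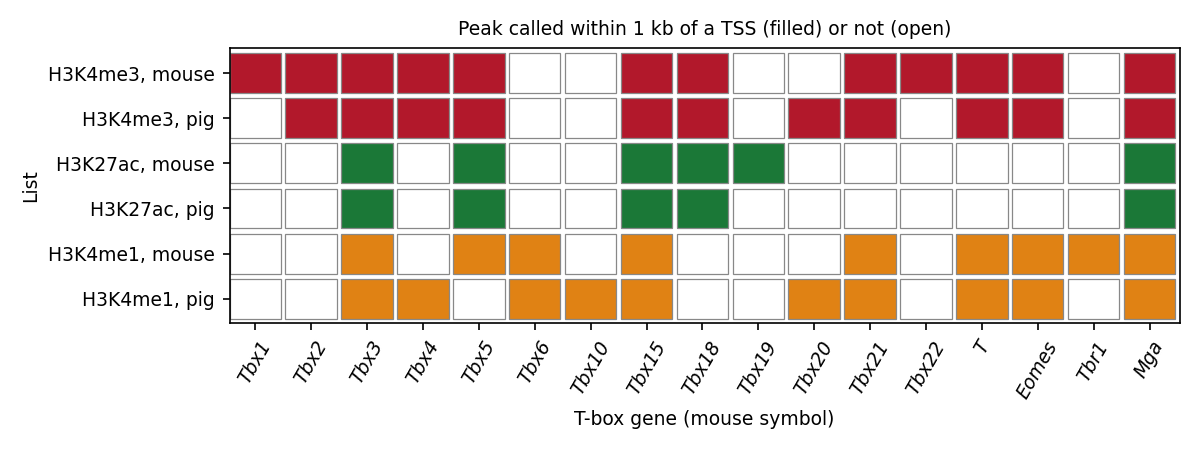
Calls within 1 kb of a TSS for the 17 T-box genes (columns, mouse symbols) in the 6 lists (rows, modification and species), filled where a peak was called. Tbx2 is filled for H3K4me3 only in both species, while Tbx3 is filled in all 6 rows.

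Genes linked with Tbx2 and Tbx3 in the limb and the cell cycle were read from the same lists. The list of 26 holds hedgehog, BMP, WNT and FGF genes, genes of the limb margin, and reported targets and partners, and was drawn up with earlier results of these data known. H3K4me3 was called at 26 of 26 in mouse and at 24 of the 25 annotated in pig, where Fgf10, the mesenchymal FGF ligand, lacked it (65.0% of all coding genes in each species). H3K27ac was called at 20 in mouse and 18 in pig (41.6% and 46.7% of all coding genes). Mouse alone had H3K27ac at Fgf10, at the homeobox gene Irx3 and at Cdkn1a, a cell-cycle inhibitor that Tbx2 and Tbx3 are known to repress. Pig alone had it at Bmp7, a BMP ligand. The nearest H3K27ac peak in pig was 1.55 kb from the start site of Fgf10, 1.03 kb from that of Irx3 and 63.9 kb from that of Cdkn1a, and that in mouse 21.8 kb from Bmp7. H3K4me1 was called at 16 and 19 genes (54.7% and 61.3% of all coding genes), in mouse near the background. Genes with it in mouse alone included the hedgehog ligand gene Shh and the cadherin gene Cdh1, and it was called in pig alone at 7 (Ptch1, Gli3, Bmp2, Bmp7, Ctnnb1, Sall4, Cdkn2b), with the nearest mouse peak within 1.03 to 1.45 kb at Ptch1, Gli3, Bmp7, Ctnnb1 and Sall4.

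Likeness to other genes was measured over 18 values per gene, the share of sequence covered by each modification within 1 kb, from 1 to 10 kb and from 10 to 100 kb of the 5′ end in both species. Each value was standardised over the 14946 genes with the same symbol in both annotations, and the Euclidean distance was taken. The genes most like Tbx2 were Atp6v0b (distance 4.07), Vps25 (4.13), Nyap1 (4.21), Vegfb (4.27) and Prdm16 (4.30), against a median of 9.39 over all. Among those most like Tbx3 were Mecom (4.0), Lmx1b (4.13), Wnt5a (4.23) and Fhl3 (4.25), against a median of 9.16. Tbx2 and Tbx3 were 6.31 apart, and Tbx3 ranked 277 in likeness to Tbx2 and Tbx2 ranked 501 in likeness to Tbx3. Between 1 and 10 kb of the 5′ end, H3K4me3 covered 49.5% at Tbx2 and 45.0% at Tbx3 in mouse (median 10.3%), and 32.4% and 22.8% in pig (median 2.45%). H3K27ac covered 42.2% and 27.7% in mouse (median 4.22%), and 2.38% and 21.5% in pig (median 0).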

How the data were processed

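Peak positions of H3K4me3, H3K27ac and H3K4me1 in mouse (E11.5) and pig (D23) forelimbs were read from 6 lists that the authors deposited, 1 per species and modification, with chromosome, start and end and no score or count. Per the labels' design text, the builds were GRCm38/mm10 and Sscrofa11.1/susScr11, and broad peaks with an irreproducible discovery rate below 0.01 were kept. Mouse and pig H3K4me1 libraries were sequenced at 100 bp and cropped to 50 bp, and so were the other mouse libraries, whereas pig H3K4me3 and H3K27ac libraries were sequenced at 50 bp. The submitters' processing notes name Bowtie2 (2.3.5), SAMtools (1.9), Trimmomatic (0.39), deepTools (3.5) and FastQC (0.11.9). Which program called peaks is not stated in the sources used. The labels name 2 biological replicates for pig H3K4me1, where the design text has only 1. Depth per sample is unknown, and no precision could be computed from positions.

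All peaks lay within the chromosomes of the RefSeq annotations of the same builds. Peaks were placed with Python 3.11.15 and numpy 2.4.6, whose interval code was tested on simulated data. Coding genes were symbols with a single record. Sequences of peaks outside start-site windows were searched with blastn 2.17.0, with lower-case repeats masked, against the orthologous gene and 500 kb on either side (E value of 1e-10 or lower for a database of 2.5 Gb), and the match with the highest score was kept. Printed sequences are from the RefSeq genomes.

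Tbx2, Tbx3 and the lists were chosen with earlier results of these data known. The genes named are Tbx2 and Tbx3, coding genes starting within 300 kb, the T-box family, cell type markers, linked genes whose calls differ between species and the 5 most alike genes for each, of which some are not reported here. No test was made, since each list is a single consensus and the choice used these peaks. Shares or medians over coding genes are given as background. Alternatives changed the start-site window, the start sites, peak width, joining of peaks, the reach and the search settings.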

Additional observations from a re-analysis of the deposited data

How the results depend on the processing

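Of 154 alternative values for 44 results, 114 stayed within the limits set and 40 moved. With a window of 2.5 kb, Tbx2 had 3 modifications called and pig TBX2 had 2. With a window of 0.5 kb, or with the 5′ end alone, Tbx3 had 1, and 0.5 kb lowered the mouse H3K4me1 background to 36.4%. With the wider 50% of peaks the mouse backgrounds were 40.4%, 24.9% and 26.8% for H3K4me3, H3K27ac and H3K4me1, and the pig ones 43.0% for H3K4me3 and 39.0% for H3K4me1. Joining peaks under 1 kb apart gave pig TBX2 an H3K4me3 width of 8058 bp and 5 H3K4me3 peaks within 300 kb.

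Counts of peaks followed the reach, as a shorter reach holds less sequence. Within 100 kb, Tbx2 had 5 H3K4me3, 3 H3K27ac and 11 H3K4me1 peaks and Tbx3 had 6, 4 and 19. Pig TBX2 had 6 H3K27ac and 25 H3K4me1 peaks, and TBX3 had 9, 12 and 22. Within 500 kb, Tbx2 had 13 H3K4me3 and 10 H3K27ac peaks, and TBX3 had 101 H3K4me1 peaks. With the wider 50% of peaks, Tbx2 had 3 H3K27ac and 21 H3K4me1 peaks, Tbx3 had 5 H3K4me3 and 30 H3K4me1, TBX2 had 4, 3 and 25, and TBX3 had 6, 13 and 32. Allowing overlap with H3K4me3 gave TBX3 19 distal H3K27ac peaks. At an E value of 1e-5, 4 distal mouse H3K27ac peaks near Tbx3 matched and 3 of the matches lay in a pig peak. Taking any match of a peak, an alternative chosen after seeing the data, gave 2 such peaks, 1 of them in pig H3K27ac. GENCODE starts, added in the same way, left the calls at both mouse genes as they were.

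No paired analysis was possible because each list is a consensus without values per replicate, and for the same reason leaving out a replicate was not run.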
